A study of Rattus norvegicus with 15 samples.

Results

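Mammalian mitochondria keep a small circular genome of their own, which is copied into long transcripts and cut into separate mRNAs. These mRNAs encode core subunits of the respiratory chain, the enzyme complexes that pass electrons to oxygen and pump protons, and of ATP synthase, which uses the proton gradient to make ATP. The remaining subunits come from nuclear genes. In the spinal cord, where firing neurons and their synapses use much ATP, mitochondrial mRNAs are among the most abundant transcripts.

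From the 34202 rows of each count table, 6 of these mRNAs were taken by their Ensembl rat identifiers. Mt-co1 (ENSRNOG00000034234) and Mt-co3 (ENSRNOG00000030700) encode subunits of cytochrome c oxidase, also called complex IV. Mt-cyb (ENSRNOG00000031766) encodes cytochrome b of complex III. Mt-nd1 (ENSRNOG00000030644) and Mt-nd2 (ENSRNOG00000031033) encode subunits of NADH dehydrogenase, complex I. Mt-atp6 (ENSRNOG00000031979) encodes a subunit of the proton channel of ATP synthase. On the mitochondrial genome Mt-nd1 and Mt-nd2 lie upstream of Mt-co1, and Mt-atp6, Mt-co3 and Mt-cyb lie downstream of it. All 6 passed the filter on low counts, as did 16522 rows in all.

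RNA came from the lumbar (L4-L6) spinal cord, on the operated side. The animals were Sprague-Dawley rats, adult and male, and the 15 libraries fall into 5 groups of 3. In 4 groups the left sciatic nerve had been loosely tied with ligatures, a model of neuropathic pain called chronic constriction injury (CCI). Of these, the CCI+YZP group received Yuan-Hu Zhi Tong Prescription (YZP) at 10.8 g crude drug per kg, the CCI+YH group YH at 7.2 g per kg and the CCI+BZ group BZ at 3.6 g per kg, for 5 days starting on postoperative day 6, and the CCI group is listed with no drug. Sham rats had the nerve exposed and left untied. Cords were taken on postoperative day 10. The labels give 7 rats per ligated group and 3 libraries from it, and do not say outright that each library is 1 rat, so p-values measure the spread between libraries. By its title the series asks how the prescription relieves this pain and how its components combine, and the doses differed between the groups. Library totals ran from 15093246 to 22757104 counts. A principal component analysis of log2 CPM (counts per 1000000 library counts, scaled by TMM) was run without the 6 mRNAs. On its first component, with 20.8% of the variance, sham libraries scored -28.7 to -22.7 and CCI libraries 9.16 to 31.1. The treated libraries were spread over both sides of 0. The tables give no symbols, so the tissue label could not be checked against marker genes.

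The 6 mRNAs ranked 2, 4, 6, 7, 9 and 11 among all genes tested by mean CPM. Mt-co1 averaged 22275 CPM over the 15 libraries, Mt-co3 9332, Mt-atp6 7226, Mt-cyb 6364, Mt-nd2 4248 and Mt-nd1 3915. This order was the same in 15 of 15 libraries. The values are not corrected for transcript length, so they order reads and not molecules. Between the lowest and the highest library Mt-co1 varied least, 1.28-fold, and Mt-nd2 most, 1.64-fold. The smallest count of any of the 6 in any library was 49680, so counting error was small beside the differences between libraries.

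Together the 6 mRNAs took 4.76% to 6.11% of a library's counts. Their summed share was 5.09%, 4.76% and 5.56% in CCI+YZP libraries, 5.16%, 5.20% and 5.29% in CCI+YH, 5.00%, 5.07% and 6.05% in CCI+BZ, 5.03%, 5.02% and 4.96% in CCI, and 6.11%, 5.69% and 5.93% in sham. The 3 CCI libraries were close together and all below sham, and 1 of the 12 ligated libraries, CCI+BZ replicate 3, reached the sham range. Group means were 5.14% ± 0.399 in CCI+YZP, 5.22% ± 0.0687 in CCI+YH, 5.37% ± 0.588 in CCI+BZ, 5.00% ± 0.0350 in CCI and 5.91% ± 0.208 in sham (SD, n = 3 each). The CCI mean was thus 0.846 times the sham mean. Wilson 95% intervals of single shares were at most 0.0112 percentage points to either side, and cover counting error only. As this is a sum over the mRNAs chosen, it is given with no test.

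**Figure D1:**
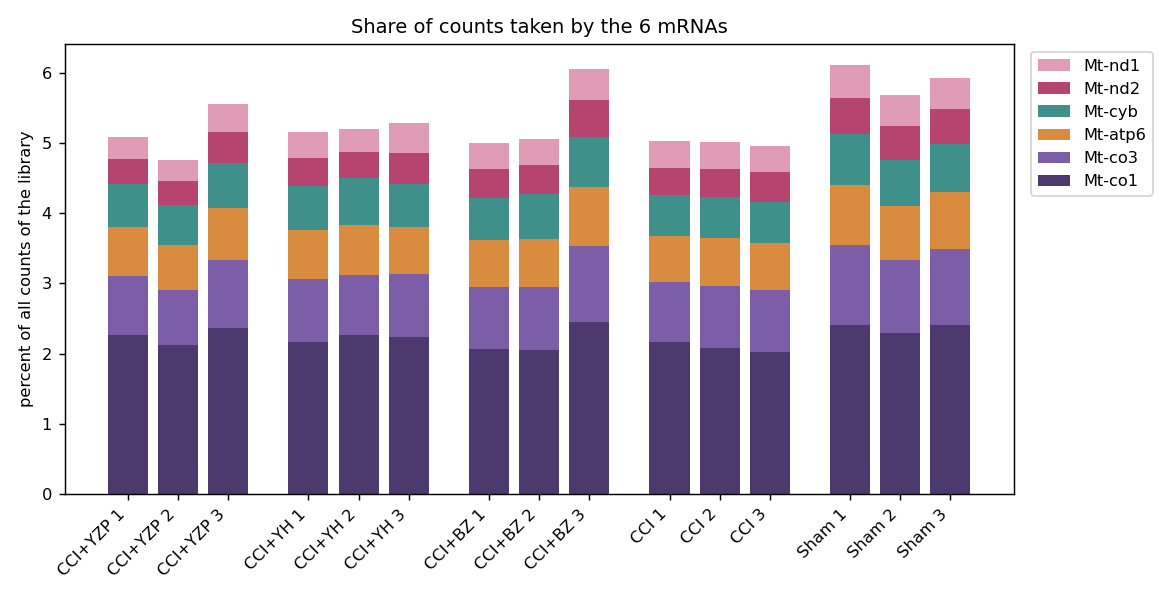
Percent of all counts in each of the 15 libraries that came from each of the 6 mRNAs, stacked, with treated groups left of CCI and CCI left of sham. The bars reach 4.96% to 5.03% in CCI and 5.69% to 6.11% in sham, and CCI+BZ replicate 3 reaches 6.05%.

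Ligation was read from CCI against sham. All 6 mRNAs stood lower in CCI, and for each of them the highest CCI library was under the lowest sham library. None passed edgeR's quasi-likelihood test after Benjamini-Hochberg adjustment over all genes, where 0.0182% of genes tested were called. Of all genes tested, 12.9% had CCI libraries that were likewise all under the sham libraries.

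Mt-co3 was at 8435, 8615 and 8578.5 CPM in CCI libraries, against 11648, 10298 and 11238 CPM in sham libraries. The CCI values lay within a narrow band well under the lowest sham library. Its log2 fold change was -0.37 (SE 0.101, edgeR adjusted p = 0.126), the smallest p of the 6. Mt-co1, the other cytochrome c oxidase subunit, was at 21610, 20517 and 19653 CPM in CCI, against 24505, 22988 and 25165 CPM in sham. This was the smallest difference of the 6, with -0.23 as its log2 fold change (SE 0.0879, adjusted p by edgeR = 0.200).

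Mt-nd2 was at 3827, 3911 and 4067 CPM in CCI, against 5233, 4806 and 5169 CPM in sham, with -0.37 as its log2 fold change (SE 0.120, adjusted p by edgeR = 0.163). Mt-nd1 was at 3758, 3777 and 3678 CPM in CCI, against 4713, 4464 and 4652 CPM in sham, with -0.30 (SE 0.117, adjusted p = 0.210). For both complex I mRNAs the gap between the groups was wider than the spread within either. For Mt-atp6 the CCI libraries held 6495, 6741 and 6567 CPM, against 8725, 7683 and 8516 CPM in sham (log2 fold change -0.33, SE 0.0960, edgeR adjusted p = 0.137). For Mt-cyb they held 5937, 5769.7 and 5725 CPM, against 7406, 6645 and 7182 CPM in sham (-0.28, SE 0.0877, adjusted p = 0.148).

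The median log2 fold change was -0.32 over the 6 mRNAs and -0.0015 over all genes tested. At an unadjusted p under 0.05, 6 of 6 were lower, as were 8.34% of all genes. The 6 were read in the same libraries and tended to differ together within groups, so here and below they are not 6 separate results. Calls depended on the model. DESeq2 called 3 of the 6, Mt-co3 (adjusted p = 0.0150), Mt-atp6 (0.0243) and Mt-cyb (0.0367), and called 1.34% of genes tested as lower. A fit of edgeR to the CCI and sham libraries alone called 4, Mt-nd2 (adjusted p = 0.0296), Mt-co3 and Mt-nd1 (0.0324 each) and Mt-atp6 (0.0430), and 0.849% of its genes as lower. Sham and CCI libraries also lay apart on the first principal component, and the part of library-wide differences in these values was not tested. In bulk tissue, fewer cells rich in mitochondria and less mitochondrial RNA per cell cannot be told apart.

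**Figure D2:**
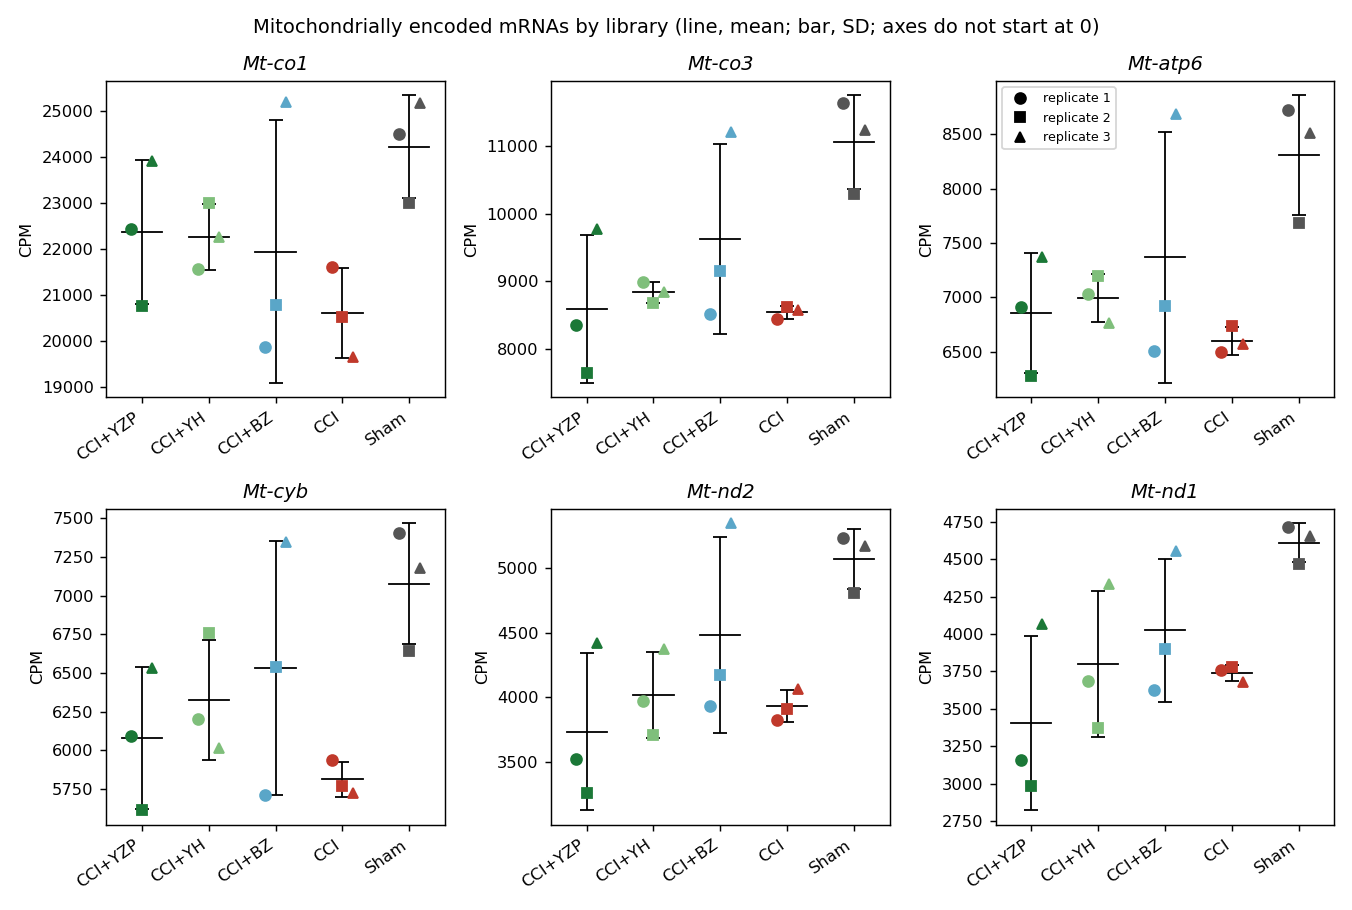
CPM after TMM scaling in each library, one panel per mRNA, with the group mean (line) and SD (bar, n = 3) and the marker shape giving the replicate number. In all 6 panels the 3 CCI libraries lie below the 3 sham libraries, and CCI+BZ replicate 3 is the highest of its group in each.

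Each treated group was then set against untreated ligation. None of the 6 mRNAs passed the adjustment in any of these comparisons, in edgeR or in DESeq2. EdgeR called 0.00605% of all genes tested in CCI+YZP and 0% in CCI+YH and CCI+BZ, and DESeq2 0.109%, 0.0787% and 0.133% in the same order. At an unadjusted edgeR p under 0.05, 0 of the 6 differed, where 3.77% of genes were lower and 3.16% higher in CCI+YZP, 2.67% and 2.92% in CCI+YH, and 3.24% and 3.39% in CCI+BZ. The intervals below show the sizes of change that the data allow. These comparisons share the CCI libraries, so their values are placed side by side and not correlated.

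In CCI+YZP the 6 mRNAs did not keep to one direction. Mt-nd1 was at 3156, 2989 and 4068 CPM in CCI+YZP, against 3758, 3777 and 3678 CPM in CCI. The first 2 of these libraries were the lowest of the series for Mt-nd1 and the third lay above CCI. The log2 fold change was -0.13 (95% interval -0.39 to 0.12, edgeR adjusted p = 0.852), with -0.28 without CCI+YZP replicate 3 and -0.049 without CCI+YZP replicate 2. Without CCI+YZP replicate 3 the unadjusted edgeR p of Mt-nd1 was under 0.05, and its adjusted p was 0.928. The share of genes under 0.05 in that setting was not computed. Mt-nd2 had the same layout, at 3526, 3259 and 4418 CPM in CCI+YZP, against 3827, 3911 and 4067 CPM in CCI (log2 fold change -0.075, 95% interval -0.33 to 0.18). Without CCI+YZP replicate 3 the Mt-nd2 value was -0.21, and without replicate 2 it was 0.014. Mt-co1 was at 22425, 20758 and 23903 CPM in CCI+YZP, against 21610, 20517 and 19653 CPM in CCI, with a positive log2 fold change of 0.12 (-0.070 to 0.31). For Mt-co3, Mt-atp6 and Mt-cyb the log2 fold changes were 0.0078, 0.054 and 0.065, and the widest of their intervals ran from -0.21 to 0.23. Without CCI+YZP replicate 3, Mt-co3 and Mt-atp6 were also below 0, at -0.096 and -0.0019.

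In CCI+YH all 6 log2 fold changes against CCI were positive and small, from 0.023 for Mt-nd1 to 0.12 for Mt-cyb. The sign turned for 2 of them without CCI+YH replicate 3, to -0.082 for Mt-nd1 and -0.035 for Mt-nd2, and for Mt-nd1 with total counts as the only scaling, to -0.00045. Mt-cyb was at 6203, 6758 and 6016 CPM in CCI+YH, against 5937, 5769.7 and 5725 CPM in CCI (95% interval of the log2 fold change -0.066 to 0.31, edgeR adjusted p = 0.936). Every CCI+YH library lay above every CCI library for Mt-cyb, Mt-co3 and Mt-atp6, that is for 3 of the 6 mRNAs, as for 5.25% of genes tested. Mt-nd1 was at 3688, 3375 and 4332 CPM in CCI+YH and had the widest spread of the 6 in that group on the log2 scale.

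In CCI+BZ all 6 log2 fold changes against CCI were also positive, from 0.091 for Mt-co1 to 0.19 for Mt-nd2, and their size depended on which CCI+BZ library was included. Mt-nd2 was at 3930.5, 4175 and 5348 CPM in CCI+BZ, against 3827, 3911 and 4067 CPM in CCI. Replicate 3 lay above every sham library for Mt-nd2, and the other 2 were within or just above the CCI range. The log2 fold change was 0.19 (95% interval -0.070 to 0.45, edgeR adjusted p = 0.805). Mt-co3 was at 8522, 9152 and 11216 CPM in CCI+BZ (log2 fold change 0.17, -0.045 to 0.39). CCI+BZ replicate 3 scored -25.1 on the first principal component, among the sham libraries, while replicate 1 scored 26.8 and replicate 2 -14.5. Without CCI+BZ replicate 3, the log2 fold changes against CCI ranged from -0.020 for Mt-co1 to 0.076 for Mt-cyb, with 0.042 for Mt-nd2. Without CCI+BZ replicate 1 they ranged from 0.16 for Mt-co1 to 0.28 for Mt-nd2. At an unadjusted edgeR p under 0.05, 4 of the 6 were then higher, as were 6.14% of genes, and none passed the adjustment.

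**Figure D3:**
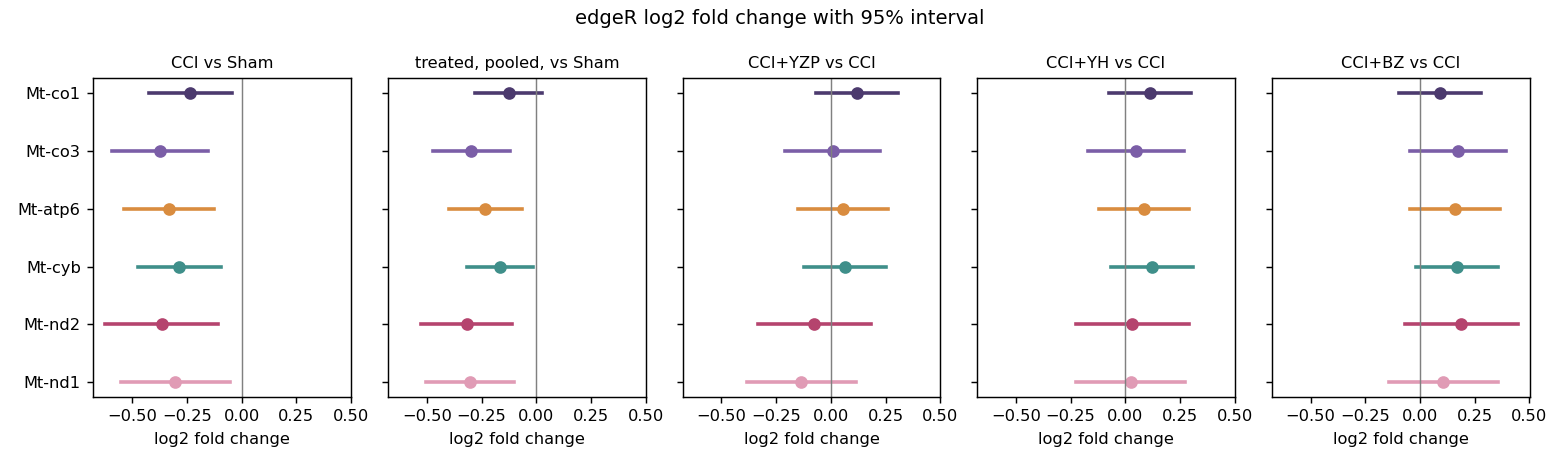
EdgeR log2 fold change (point) and 95% interval (line) of each mRNA in 5 comparisons, on a common axis. All 6 intervals lie below 0 for CCI against sham, 5 of 6 lie below 0 for the treated groups pooled against sham, and all intervals against CCI include 0.

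Between treatments the 6 mRNAs also gave no adjusted call. EdgeR called 0% of genes tested between CCI+YZP and CCI+YH, 0.0182% between CCI+YZP and CCI+BZ and 0.0424% between CCI+YH and CCI+BZ, none of them among the 6. At an unadjusted p under 0.05, 1 of the 6, Mt-nd2, was lower in CCI+YZP than in CCI+BZ, as were 2.47% of genes. It averaged 3734 ± 607 CPM over the CCI+YZP libraries and 4484 ± 758 CPM over those of CCI+BZ (SD, n = 3 each). The log2 fold change was -0.26 (95% interval -0.52 to -0.0058, edgeR adjusted p = 0.967), with -0.12 without CCI+BZ replicate 3, -0.35 when CCI+BZ replicate 1 was left out and -0.40 when CCI+YZP replicate 3 was. Mt-nd1 had a log2 fold change of -0.24 in the same comparison (-0.49 to 0.0092), with -0.14, -0.31 and -0.39 under the same omissions. The count at an unadjusted p under 0.05 was 4 when CCI+BZ replicate 1 was left out, where 3.16% of genes were lower. It was 3 when CCI+YZP replicate 3 was, where 2.3% of genes were lower. It was 0 when any Sham or CCI library, CCI+YZP replicate 1 or 2, CCI+YH replicate 1 or CCI+BZ replicate 3 was left out. The remaining omissions gave 1 or 2, and a fit of only the groups compared gave 0. The order of group means from lowest to highest was CCI, CCI+BZ, CCI+YH, CCI+YZP, sham for Mt-co1. It was CCI, CCI+YZP, CCI+YH, CCI+BZ, sham for Mt-co3, Mt-atp6 and Mt-cyb, and CCI+YZP, CCI, CCI+YH, CCI+BZ, sham for Mt-nd1 and Mt-nd2. Ligated groups next to each other in these orders differed by less than the larger of their SDs.

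Against sham, the 3 treated groups pooled had negative log2 fold changes for 6 of 6 mRNAs, with a median of -0.26. The largest were -0.32 for Mt-nd2 (SE 0.0963, edgeR adjusted p = 0.182), -0.30 for Mt-nd1 (SE 0.0935, adjusted p = 0.189) and -0.30 for Mt-co3 (SE 0.0814, adjusted p = 0.156). The smallest was -0.13 for Mt-co1 (SE 0.0712, edgeR adjusted p = 0.462). None passed, where edgeR called 0.0908% of genes tested. At an unadjusted p under 0.05, 5 of 6 were lower, as were 6.52% of genes. DESeq2 called Mt-co3 alone (adjusted p = 0.0228), with 0.69% of genes called lower. Group by group, 5 of the 6 mRNAs had CCI+YZP libraries that were all under the sham libraries, the exception being Mt-co1, where 8.62% of genes did. The count was also 5 for CCI+YH, all but Mt-cyb, where 8.73% of genes did, although for Mt-co1 the highest CCI+YH library and the lowest sham library were both at 22988 CPM. It was 0 for CCI+BZ, where 5.76% of genes did.

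EdgeR's test of any difference among the 5 groups passed for none of the 6 after adjustment, while DESeq2's called 1, Mt-co3 (adjusted p = 0.0250), and 2.02% of genes tested. EdgeR gave an unadjusted p under 0.05 for 4 of them, Mt-co3, Mt-nd2, Mt-nd1 and Mt-atp6, as for 10.5% of genes tested, and their edgeR adjusted p ranged from 0.358 to 0.447. EdgeR called 0.0908% of all genes in this test.

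Within groups, the 6 mRNAs tended to differ together from library to library. After removal of group means, all 6 lay above their group mean in 4 libraries, CCI+YZP replicate 3, CCI+BZ replicate 3, Sham replicate 1 and Sham replicate 3. All 6 lay below it in 3, CCI+YZP replicate 2, CCI+BZ replicate 1 and Sham replicate 2. The remaining 8 libraries were split. The widest departures were those of CCI+BZ replicate 3, at 0.18 to 0.27 on the log2 scale, and of CCI+YZP replicate 3, at 0.099 to 0.27.

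**Figure D4:**
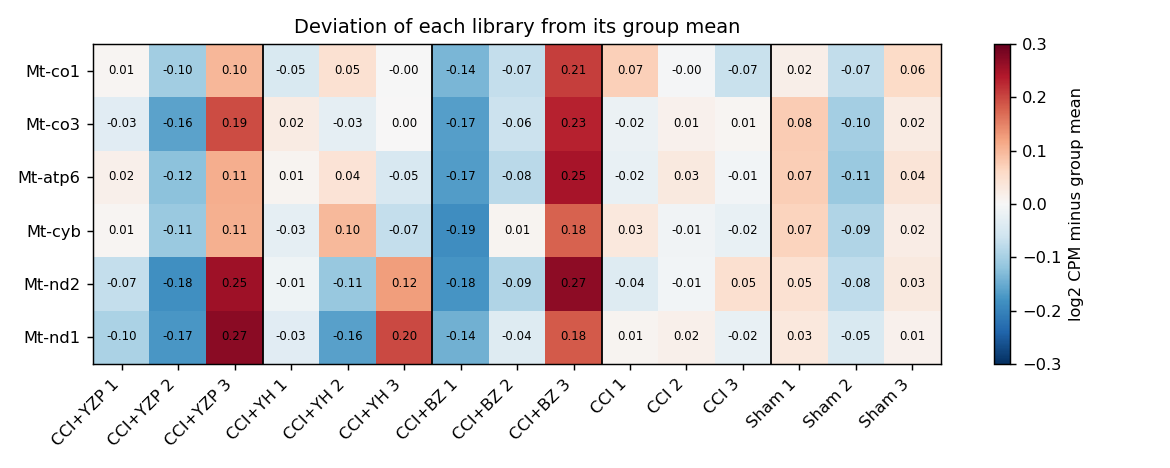
Log2 CPM of each mRNA minus its group mean, by library, with groups set apart by black lines and red above the mean. CCI+BZ replicate 3 and CCI+YZP replicate 3 are above their group mean for all 6 mRNAs, while in CCI+YH replicates 2 and 3 Mt-nd1 and Mt-nd2 lie on the other side of the mean from Mt-cyb.

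Of the 15 pairs of mRNAs, 10 were correlated across the 15 group-centred libraries at an adjusted p under 0.05, by a two-sided exact permutation of libraries within groups. Mt-nd1 with Mt-nd2 gave the highest Pearson r, 0.942 (Spearman rho 0.925, exact permutation adjusted p = 0.00772 and 0.0106). Mt-co3 with Mt-atp6 gave 0.939 (rho 0.854, adjusted p = 0.00868 and 0.0234), and Mt-atp6 with Mt-cyb 0.916 (rho 0.868, adjusted p = 0.00772 and 0.0129). The lowest was Mt-cyb with Mt-nd1, at 0.503 (rho 0.486, adjusted p = 0.180 and 0.174). The complex I pair thus followed each other closely and followed Mt-cyb least, as in CCI+YH, where replicate 3 was the highest of its group for Mt-nd1 and Mt-nd2 and the lowest for Mt-cyb and Mt-atp6. By rho, 7 pairs passed. The share of gene pairs at large that would pass was not computed, so these counts cannot be called unusual. The 2 libraries farthest from the median of 1 mRNA of the pair were CCI+BZ replicate 3 and, by pair, CCI+BZ replicate 1 or CCI+YZP replicate 3. Without them r ranged from 0.259 to 0.908 and 0 pairs passed, with 0.903 left for Mt-nd1 with Mt-nd2 (exact permutation adjusted p = 0.0521). Group means were not taken anew for this, so these r can still carry an offset set by the omitted libraries. Every r was lower without them, so the relations rest in part on those libraries. A call is also harder to reach with fewer libraries, so the lost calls alone do not measure this. The libraries share a scale factor for all genes. The median r of each of the 6 with all other genes lay between -0.0055 and 0.0049. TMM scaling itself sets the typical gene near no difference between libraries, so this median is no check on the scale factor. With total counts as the only scaling, every r of a pair was lower, from 0.352 to 0.929, and 9 pairs passed.

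Mt-co3 followed the mean of the other five most closely (r = 0.979), and no other gene tested did so as closely. For Mt-nd1, the least close (r = 0.773), 161 other genes matched or exceeded it. Of 16516 other genes, 50 had an r of at least 0.8 with the mean of the 6 and 47 had -0.8 or less, and the middle of the distribution ran from -0.28 to 0.28. The closest were ENSRNOG00000022730 (r = 0.901), at 23.6 to 36.3 CPM, and ENSRNOG00000004147 (r = 0.895), at 62.1 to 104 CPM, neither of which has a symbol in the tables used. These are descriptions over 15 libraries.

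Within groups, r with the first principal component was negative for all 6, and Mt-cyb alone passed the adjustment. Mt-cyb was lower where the score was higher (Pearson r = -0.866, Spearman rho = -0.846, exact permutation adjusted p = 0.0355 and 0.0463 over 12 relations). Without CCI+BZ replicates 1 and 3 its r was -0.758 (exact permutation adjusted p = 0.213), with group means still those of all libraries. For Mt-atp6, r and rho were -0.728 and -0.739 (exact permutation adjusted p = 0.153 and 0.0849). They were -0.712 and -0.675 for Mt-co1 (0.153 and 0.104) and -0.619 and -0.429 for Mt-co3 (0.297 and 0.367). For Mt-nd1 the values were -0.295 and -0.254 (adjusted p = 0.535 and 0.617), and for Mt-nd2 -0.406 and -0.271 (0.493 and 0.617). With the log10 total count of the library, r ranged from 0.184 to 0.490, and none of the 6 passed. These 12 relations were chosen after the data were seen.

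The proportions among the 6 do not depend on how a library is scaled. Mt-co1 made up 43.9% ± 1.10 of their summed counts in CCI+YZP, 42.6% ± 0.899 in CCI+YH, 40.7% ± 0.485 in CCI+BZ, 41.8% ± 1.24 in CCI and 40.1% ± 0.673 in sham (SD, n = 3 each). Mt-nd1 made up 6.64% ± 0.535, 7.27% ± 0.922, 7.47% ± 0.149, 7.59% ± 0.0777 and 7.64% ± 0.178 in the same order of groups.

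Counted against Mt-co1 of the same library, Mt-nd1 had 14.1, 14.4 and 17.0 counts per 100 Mt-co1 counts in CCI+YZP, against 17.4, 18.4 and 18.7 in CCI. The CCI+YZP libraries were all below the CCI libraries, a difference of -3.01 with an exact two-sided permutation p of 0.1, the smallest that 3 against 3 libraries allow (adjusted p = 0.343 over 12 comparisons). Among all other genes, 15.1% had a ratio to Mt-co1 that was lower in every CCI+YZP library. Mt-co1 averaged more in CCI+YZP than in CCI, which lowers all such ratios, and by CPM the share was 7.43%. In CCI+YH the Mt-nd1 ratio was 17.1, 14.7 and 19.5, which spanned the CCI range, and in CCI+BZ it was 18.3, 18.8 and 18.1. Sham libraries held 19.2, 19.4 and 18.5. For Mt-nd2, the other complex I mRNA, the ratio was 15.7 to 18.5 in CCI+YZP, against 17.7 to 20.7 in CCI, and the groups overlapped (difference -2.52, exact two-sided permutation p = 0.2, adjusted p = 0.343). The same CCI libraries also overlapped sham, at 20.5 to 21.4 (difference -1.78, exact permutation p = 0.2, adjusted p = 0.343). Mt-co3 per 100 Mt-co1 counts was 39.0, 42.0 and 43.6 in CCI, against 47.5, 44.8 and 44.7 in sham. The groups did not overlap, with a difference of -4.11 (exact two-sided permutation p = 0.1, adjusted p = 0.343). Of other genes, 1.6% had a ratio to Mt-co1 that was lower in every CCI library. Mt-co1 was itself lower in CCI than in sham, which raises all such ratios, and by CPM the share was 12.9%. The Mt-co3 ratio of each treated group overlapped that of CCI. The 10 comparisons with overlap had exact permutation p from 0.2 to 0.8. So Mt-co3 was lower in CCI than in sham by more than Mt-co1 was in these libraries, and the ratio does not say that either stayed the same. The ratio tests too were chosen after the data were seen.

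**Figure D5:**
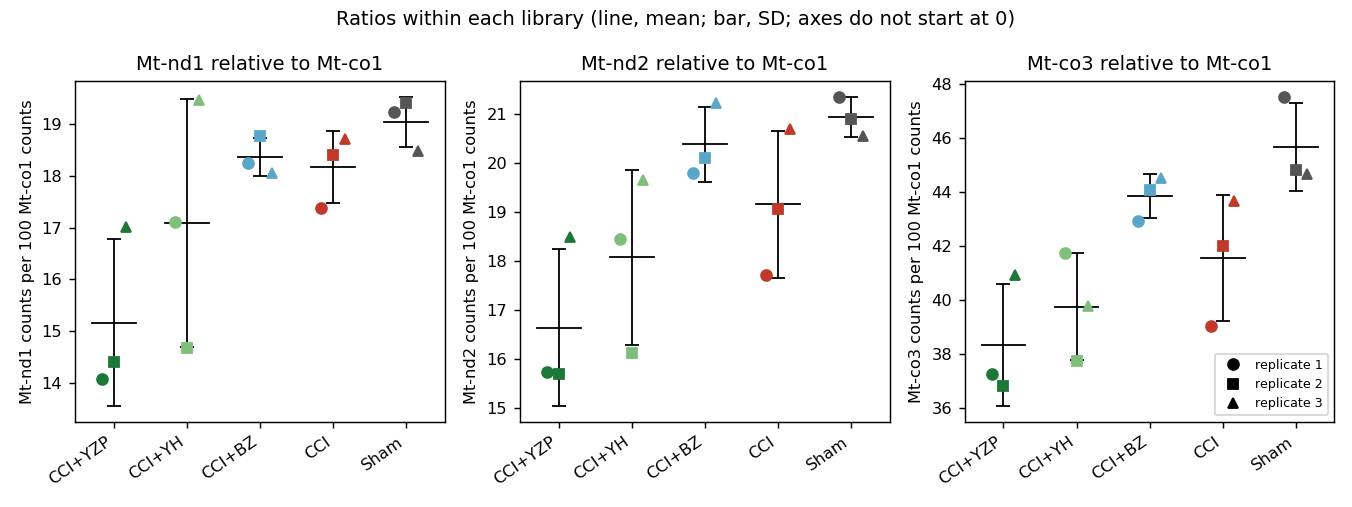
Counts of Mt-nd1, Mt-nd2 and Mt-co3 per 100 counts of Mt-co1 in each library, with the group mean (line) and SD (bar, n = 3). Mt-nd1 is at 14.1 to 17.0 in CCI+YZP, against 17.4 to 18.7 in CCI, and Mt-co3 is at 39.0 to 43.6 in CCI, against 44.7 to 47.5 in sham.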

How the data were processed

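Total RNA was isolated with Trizol and sequenced from NEBNext Ultra libraries, per the labels' protocols. The labels do not say whether poly(A) RNA was selected, which can set how many mitochondrial reads a library holds. For each library the authors deposited 1 table of raw counts per gene. The build rn4 and DESeq2 1.16.1 are listed per the submitters' processing notes. Not given in the sources used here are the aligner, the counter, the annotation and the use of strand. Nuclear copies of mitochondrial DNA, neighbouring mitochondrial genes that overlap and reads of the opposite strand may therefore share reads with the 6 mRNAs.

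Of 34202 rows, 32883 carried an Ensembl identifier and 1319 a running number only. The names of the 6 mRNAs were given with the rule that chose them. The reference table (GRCr8, 47357 genes) holds an Ensembl identifier for 0 genes, so 7 lists of respiratory chain, mitochondrial RNA and regulator genes and the cell type markers, fixed by symbol, could not be tested, and no other gene is named. Mitochondrial sequences are not printed here.

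Rows were kept by filterByExpr (minimum count 10), libraries scaled by TMM, and a quasi-likelihood model (edgeR 4.0.16, R 4.3.3) fitted to all 15 libraries with a coefficient per group and 10 residual degrees of freedom. Genes were called at a Benjamini-Hochberg adjusted p under 0.05 over 16522 genes, in 8 comparisons and 1 test over all groups. The SE of a log2 fold change is its size over the root of its F statistic. CPM are from edgeR after TMM, log2 CPM with a prior count of 2. The fit and the permutation tests were tested on simulated data. Same-group libraries differed by more than sampling noise (chi-square per gene 6.79 to 26.0 over 15 pairs). Alternatives were DESeq2 1.42.0, other scalings, no filter, fewer groups, a replicate block and leaving out each library. The 6 mRNAs, the lists and the tests were chosen with earlier results of these data known. The rule for names took the 6 mRNAs and the genes of highest correlation with their mean, of which 2 identifiers are printed.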

Additional observations from a re-analysis of the deposited data

How the results depend on the processing

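For CCI against sham, all 6 mRNAs stayed lower under every alternative run, and for the treated groups pooled against sham likewise. With each library left out in turn, 0 of the 6 were called in any comparison. In CCI against sham the edgeR adjusted p of Mt-co3 ranged from 0.0725 to 0.339 with a library left out, and that of Mt-co1 from 0.116 to 0.458. DESeq2 called 3 of the 6 in CCI against sham, 1 in the treated groups pooled against sham and 1 in the test over all 5 groups, and the fit of only the groups compared called 4 in CCI against sham. The cause was not tested.

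The number of all genes called moved more. DESeq2 called 487 genes in CCI against sham, 18, 13 and 22 against CCI in CCI+YZP, CCI+YH and CCI+BZ, 2 between CCI+YZP and CCI+YH, 23 between CCI+YZP and CCI+BZ, 39 between CCI+YH and CCI+BZ, 299 in the treated groups pooled against sham and 334 in the test over all groups, where edgeR called 3, 1, 0, 0, 0, 3, 7, 15 and 15. Total counts as the only scaling gave 1 gene in CCI against sham. With only the groups compared, the counts were 428 for CCI against sham, 0 for CCI+YZP and 1 for CCI+YH against CCI, 1 for CCI+YH against CCI+BZ and 7 for treated against sham. Without a filter on low counts there were 2 for CCI+YZP, 1 for CCI+YH and 2 for CCI+BZ against CCI, 5 for CCI+YZP against CCI+BZ and 23 for treated against sham.

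By correlation of deviations, the replicate numbers did not pair the samples as a whole. Over 30 same-numbered pairs of different groups it ranged from -0.167 to 0.143 (3 above 0.1), and 4 of 15 samples correlated best with their own number. Mt-nd2 nevertheless lay above its group mean in replicate 3 of all 5 groups (0.029 to 0.27, log2 scale). It lay below in replicate 2 of all 5 (-0.18 to -0.0083). Mt-co3 lay above in replicate 3 of all 5 (0.0014 to 0.23). Mt-co1, Mt-atp6, Mt-cyb and Mt-nd1 lay on both sides for each number. These runs of signs were picked after the values were seen, and the share of all genes with such a run was not computed. Mt-co3 and Mt-nd2 also followed each other within groups (Pearson r = 0.935), so their runs are not separate. Whether these mRNAs share a replicate effect was not tested. With the replicate block, genes called were 2 for CCI+YZP and 1 for CCI+YH against CCI, 2 for CCI+YH against CCI+BZ, 9 for treated against sham and 5 over all groups, with 0 of the 6 mRNAs in any.

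With 1 library left out, genes called ranged from 1 to 193 for CCI against sham (193 without CCI+BZ replicate 1), 0 to 3, 0 to 1 and 0 to 4 for CCI+YZP, CCI+YH and CCI+BZ against CCI, 0 to 1 for CCI+YZP against CCI+YH, 0 to 4 for CCI+YZP against CCI+BZ, 0 to 8 for CCI+YH against CCI+BZ, 0 to 61 for treated against sham (0 without Sham replicate 1, 61 without CCI+BZ replicate 3) and 2 to 23 over all groups.

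Small log2 fold changes, none of them called, changed sign. With total counts as the only scaling, Mt-co3 in CCI+YZP against CCI was -0.0065 and Mt-nd1 in CCI+YH against CCI -0.00045. With 1 library left out, CCI+YZP against CCI ranged from -0.0019 to 0.11 for Mt-atp6, -0.096 to 0.086 for Mt-co3 and -0.21 to 0.014 for Mt-nd2. CCI+YH against CCI ranged from -0.082 to 0.10 for Mt-nd1 and -0.035 to 0.085 for Mt-nd2, and CCI+BZ against CCI from -0.020 to 0.16 for Mt-co1. CCI+YZP against CCI+YH ranged from -0.086 to 0.030 for Mt-atp6, -0.044 to 0.057 for Mt-co1 and -0.14 to 0.037 for Mt-co3. CCI+YZP against CCI+BZ ranged from -0.19 to 0.029 for Mt-atp6 and -0.040 to 0.14 for Mt-co1. CCI+YH against CCI+BZ ranged from -0.16 to 0.059 for Mt-atp6, -0.046 to 0.13 for Mt-co1, -0.13 to 0.047 for Mt-cyb and -0.19 to 0.014 for Mt-nd1.

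With the 5 most abundant other genes out of the total, the summed share was 5.55% in CCI+YZP, 5.65% in CCI+YH, 5.37% in CCI and 6.45% in sham. Over rows with an Ensembl identifier it was 5.31% in CCI+YH and 5.09% in CCI. The denominator is smaller in both settings. Only means that moved by their SD or more are given, and the mean of CCI+BZ, the group with the largest SD, moved by less in both. Without the 2 libraries farthest from the median, 0 of 15 pairs of mRNAs passed, in place of 10. A call is also harder to reach with fewer libraries, and group means were still those of all libraries.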
